A study of Drosophila melanogaster with 8 samples.

Results

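The heterochromatic sequences of the *Drosophila* sex chromosomes that the tiling arrays name Xh and Yh were compared for their H3K36me3 levels in *dkdm4a* mutant and wild type embryos. All genomic probes whose array position lies on Xh or Yh were taken, which gave 494 probes on Xh and 432 on Yh, or 926 of 475395 genomic probes in the experiment. All of these had a value in every sample. The names are those of the array design, which places these scaffolds apart from the X arm. The files hold no gene names, no probe sequences and no name of the genome build for these probes, so the positions below are the array's own, and genes could not be placed on them.

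Chromatin was prepared from whole embryos collected 2 to 4 hr after egg laying. The mutant line carries the SUPor-P element KG04636 in *Kdm4A* (y1 w67c23 background). The wild type samples came from the line in which that element had been excised precisely, so they are not an unrelated laboratory strain. Each genotype was represented by 2 biological replicates from population cages, and each sample therefore pools many embryos. The labels do not give the sex of the embryos. DNA immunoprecipitated with an antibody against H3K36me3 was labeled with Cy5 and input DNA with Cy3, with no dye swap, so dye and IP cannot be told apart within an array.

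H3K36me3 is placed on the bodies of genes by methyltransferases that travel with elongating RNA polymerase, and dKDM4A is a JmjC-domain demethylase that removes it. Pericentromeric heterochromatin of the X chromosome is rich in repeats but holds transcribed genes. The *Drosophila* Y chromosome is almost wholly heterochromatic, and its protein-coding genes are known mainly for their expression in the male germline. Both sequences are thus places where the mark can be measured in a chromatin environment rich in HP1a, the heterochromatin protein that dKDM4A binds.

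The level of a probe is its log2 ratio of IP over input minus the median of that array, so that 0 is the middle of the array and a difference of 1 is a factor of 2. Xh was enriched for H3K36me3 and Yh lay close to the middle of the array. The mean level over the Xh probes was 1.70 in mutant replicate 1 and 2.06 in mutant replicate 2, and 1.60 and 1.92 in the wild type replicates. Over the samples Xh averaged 1.88 ± 0.26 in the mutant and 1.76 ± 0.23 in wild type (SD, n = 2 each). For Yh the mean level was 0.15 and 0.40 in the mutant, and 0.07 and 0.29 in wild type. This gave 0.28 ± 0.17 in the mutant and 0.18 ± 0.16 in wild type (SD, n = 2 each). On both scaffolds replicate 2 was higher than replicate 1 in both genotypes, and the genotypes overlapped.

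Within each sample Xh was higher than Yh. The difference was 1.55 and 1.66 in the mutant and 1.53 and 1.63 in wild type, with a mean of 1.59 ± 0.06 (SD, n = 4). It was positive in 4 of 4 samples (exact sign-flip test, two-sided, p = 0.125, the smallest that 4 samples allow). The gap was therefore many times larger than the spread between samples, although this design cannot reach 0.05. Between genotypes the gap differed by 0.03. It was 0.75 with normexp background correction and 0.91 with medians over probes, and was positive in 4 of 4 samples with each.

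**Figure D1:**
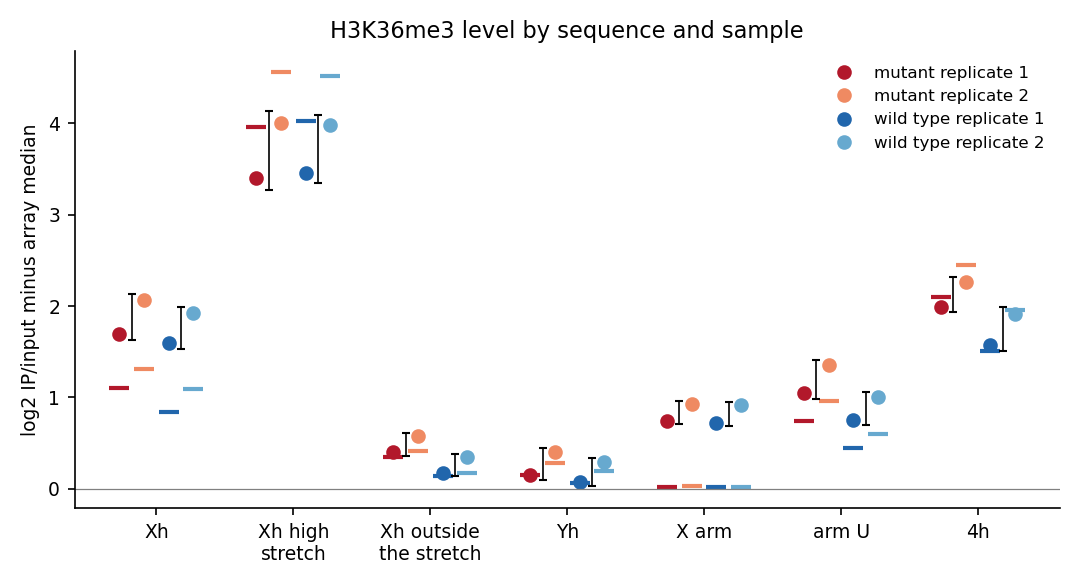
Mean level (points) and median level (dashes) over the probes of each sequence in the 2 mutant and 2 wild type samples, as log2 IP/input minus the array median. Error bars are the mean ± SD of the 2 sample means of a genotype; the Xh samples lie between 1.60 and 2.06 and the Yh samples between 0.07 and 0.40.

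The X arm without the 1000000 bp next to its proximal end, with 82227 probes, served as the euchromatic comparison on the same arrays. Its mean level was 0.75 and 0.92 in the mutant and 0.72 and 0.91 in wild type. Xh exceeded it by 0.99 ± 0.11 on average (SD, n = 4) and in 4 of 4 samples. Yh lay below it by a mean difference of -0.60 ± 0.05 (SD, n = 4), again in 4 of 4 samples (exact sign-flip test, p = 0.125 for each). The second difference depended on how the probes were summarized. The X arm combined a median near 0.02 with a long upper tail, and with medians over probes Yh was 0.15 above the X arm. With normexp Xh exceeded the X arm by 0.60, and Yh differed from it by -0.15. Of the other heterochromatic sequences of these arrays, arm U lay between Yh and Xh and 4h close to Xh. Sequence not placed on a chromosome (arm U, 5769 probes) had a mean level of 1.20 ± 0.22 in the mutant and 0.88 ± 0.18 in wild type, and 4h (87 probes) had 2.13 ± 0.20 in the mutant and 1.75 ± 0.24 in wild type (SD, n = 2 each).

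The enrichment of Xh was not spread evenly along the scaffold. The share of Xh probes above 0 was 79.6% and 84.2% in the mutant and 73.9% and 78.1% in wild type, whereas the share above 3 was 27.1% and 31.4% in the mutant and 28.7% and 31.8% in wild type. On Yh 56.5% and 62.5% of the probes were above 0 in the mutant, and 53.0% and 59.0% in wild type. A level above 3 was reached on Yh by 1 and 13 probes in the mutant and by 1 and 7 probes in wild type. Xh thus held a large fraction of strongly enriched probes in every sample, and Yh nearly none.

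Most strongly enriched Xh probes lay in one stretch of 32 kb, from 96001 to 128000, whose bounds were set after the values had been seen. Its left edge is the start of the first 2 kb of Xh that holds at least 3 probes. Few probes lie before that edge, so the values do not show where the high levels begin. The 214 probes of the stretch averaged 3.40 and 4.00 in the mutant and 3.46 and 3.98 in wild type. The 280 Xh probes outside it averaged 0.40 and 0.57 in the mutant and 0.18 and 0.34 in wild type, close to Yh. Outside the stretch Xh exceeded Yh by 0.25 and 0.18 in the mutant and by 0.11 and 0.05 in wild type. Most of the distance between the scaffolds therefore came from the 32 kb stretch.

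Probes were also averaged in 2 kb windows with at least 3 probes, which gave 40 windows on Xh with a median of 13.5 probes and 61 on Yh with a median of 5. The window levels given here chose these windows and are a description. The highest Xh window, from 120001 to 122000 with 16 probes, had levels of 4.98 and 5.72 in the mutant and 5.06 and 5.82 in wild type. The window from 104001 to 106000 had 4.99 and 5.58 in the mutant and 5.03 and 5.72 in wild type, and that from 96001 to 98000 had 4.51 and 5.02 in the mutant and 4.60 and 5.26 in wild type. In each of these 3 windows the mutant was slightly below wild type in both replicates, by far less than the distance between replicates. With scaling by the median absolute deviation, an alternative processing, their mean changes were above 0, at 0.084, 0.083 and 0.0047. The stretch was interrupted by the window from 108001 to 110000, where 9 probes averaged 0.47 and 0.83 in the mutant and 0.59 and 1.18 in wild type.

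Directly after the stretch the windows of Xh lay near the middle of the array or below it. The lowest Xh windows began at 134001, 140001 and 132001. The first of these had levels of -0.46 and -0.35 in the mutant and -0.33 and -0.25 in wild type. The window from 140001 had -0.72 and -0.04 in the mutant and -0.64 and 0.01 in wild type, and the window from 132001 had -0.24 and -0.32 in the mutant and -0.16 and -0.44 in wild type. Of 40 Xh windows, 11 had a mean level over the 4 samples above 3, 18 had one above 1 and 9 had one below 0. Of the 11 only the window from 142001 lay outside the stretch, and its wild type values rest on intensities that the scanner software had replaced.

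**Figure D2:**
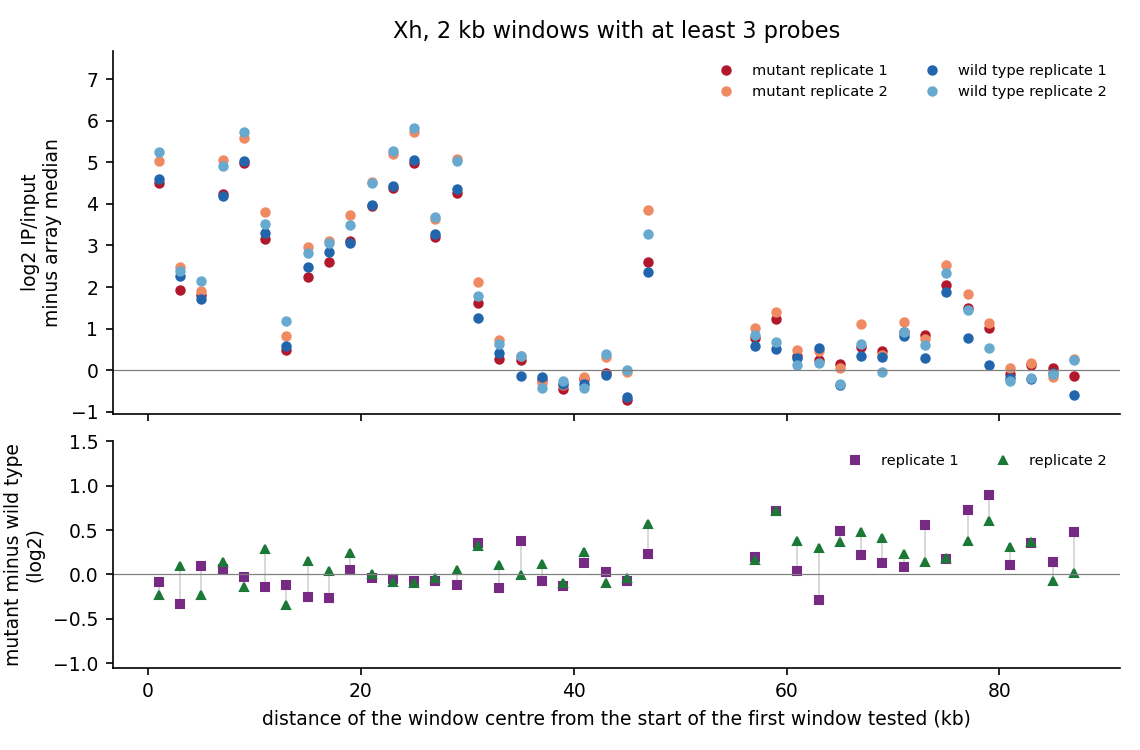
Upper panel, level of each 2 kb window of Xh in the 4 samples, as log2 IP/input minus the array median, against its distance in kb from the start of the first window tested. Lower panel, mutant minus wild type in replicate 1 (squares) and replicate 2 (triangles). The first 32 kb hold the highest levels, up to 5.82, with changes near 0, while most windows further along were higher in the mutant in both replicates.

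No stretch of this kind was found on Yh. Its window levels averaged over the 4 samples ran between -0.65 and 1.35, with a median of 0.28. Of 61 windows 3 were above 1 and 19 were below 0. The highest began at 238001, where 5 probes averaged 1.45 and 1.68 in the mutant and 1.00 and 1.26 in wild type. The window from 8001 had 1.11 and 1.45 in the mutant and 0.99 and 1.34 in wild type. In the window from 180001 the levels were 0.60 and 1.56 in the mutant and 1.07 and 1.32 in wild type, but 1 of its 5 probes was well above background in both channels on all 4 arrays. The lowest Yh window, from 320001 with 7 probes, had -0.80 and -0.71 in the mutant and -0.80 and -0.28 in wild type, and no probe of it met that criterion. The windows from 384001 and 304001 followed, with means over the genotypes between -0.42 and -0.34.

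**Figure D3:**
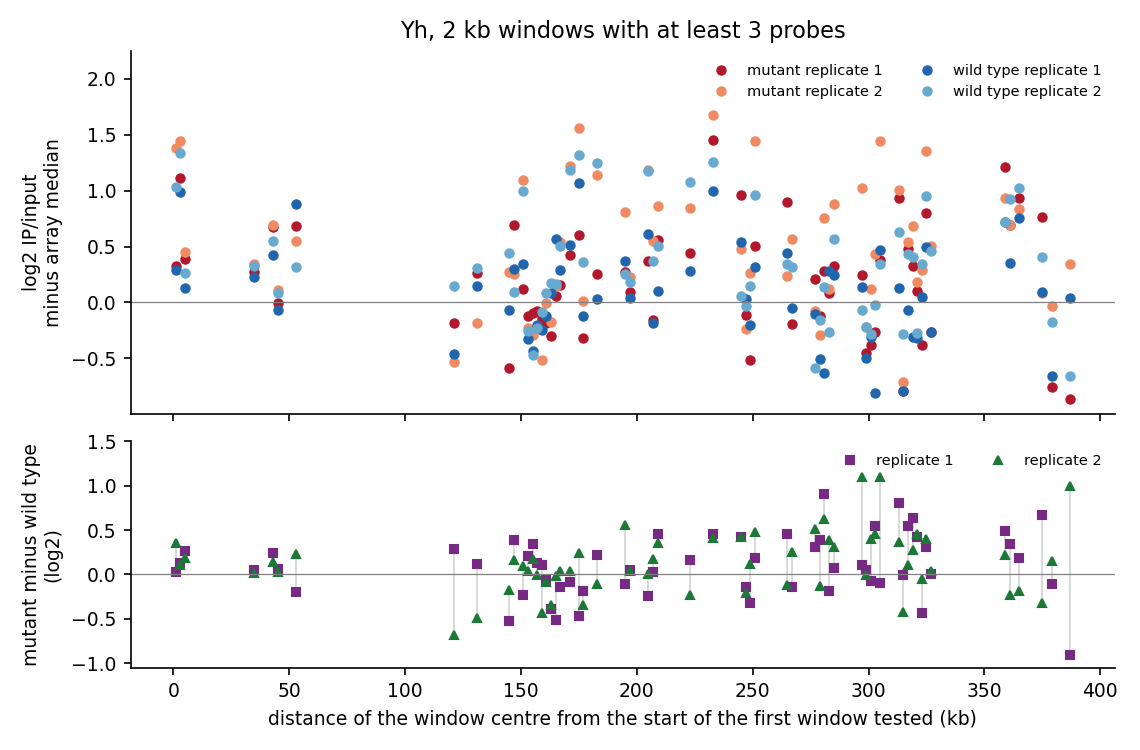
Upper panel, level of each 2 kb window of Yh in the 4 samples, as log2 IP/input minus the array median, against its distance in kb from the start of the first window tested. Lower panel, mutant minus wild type in replicate 1 (squares) and replicate 2 (triangles). No window lies above 1.68 in any sample, and the replicates of a window often differ in the sign of the change.

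Among single probes the highest of Xh, at 97814 to 97858, had a level of 6.51 and 6.33 in the mutant and 6.61 and 6.58 in wild type. The highest of Yh, at 257090 to 257149, had 4.45 and 5.26 in the mutant and 4.43 and 5.33 in wild type. The lowest Xh probe, at 133525 to 133579, had -0.88 and -1.23 in the mutant and -2.26 and -1.88 in wild type. The lowest Yh probe, at 169453 to 169512, had -2.28 and -1.69 in the mutant and -2.48 and 0.50 in wild type, so its wild type replicates were far apart. Both lowest probes were not well above background on at least 1 array.

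The scaffolds differed in how well their probes were measured. Input DNA was dimmer on Yh than on Xh and the X arm. The mean log2 input intensity minus the array median was -1.74 and -2.15 on Yh in the mutant and -1.72 and -2.16 in wild type. On Xh it was -0.44 and -0.88 in the mutant and -0.45 and -0.91 in wild type, and on the X arm it lay between -0.72 and -0.53. Yh was below the X arm by a mean difference of -1.32 ± 0.15 in its input (SD, n = 4, exact sign-flip test, p = 0.125), and Xh differed from it by -0.05 ± 0.16 (p = 0.625). These intensities contain the affinity of each probe as well as the amount of DNA, and their part in the low level of Yh was not tested.

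In both channels and on all 4 arrays 427 Xh probes (86.4%) and 211 Yh probes (48.8%) were well above background. The scanner software had replaced a very low intensity on at least 1 array for 16 Xh probes and 89 Yh probes. With only the probes well above background, Xh had mean levels of 1.88 and 2.23 in the mutant and 1.78 and 2.11 in wild type, and Yh had 0.38 and 0.34 in the mutant and 0.19 and 0.28 in wild type. The gap between the scaffolds was thus as large among well measured probes. The remaining 221 Yh probes averaged -0.06 and 0.45 in the mutant and -0.04 and 0.31 in wild type, so that they carried most of the difference between the replicates on Yh.

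Yh also held a small group of bright input probes. In all 4 samples 48 Yh probes (11.1%) were above the array median of the input, and their level was 0.71 and 0.77 in the mutant and 0.51 and 0.57 in wild type. The 355 Yh probes below that median in all samples averaged 0.07 and 0.35 in the mutant and 0.00 and 0.26 in wild type. The 48 bright probes had a higher mean level than these 355 in every sample, and the genotypes did not overlap among the 48. Across all 432 Yh probes, input and level in wild type were correlated with Pearson's r of -0.18. The input is also the denominator of the level, so this correlation does not show whether the level changes with input brightness. On Xh 164 probes were above the input median in all samples, and they averaged 2.40 and 2.73 in the mutant and 2.28 and 2.62 in wild type.

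**Figure D4:**
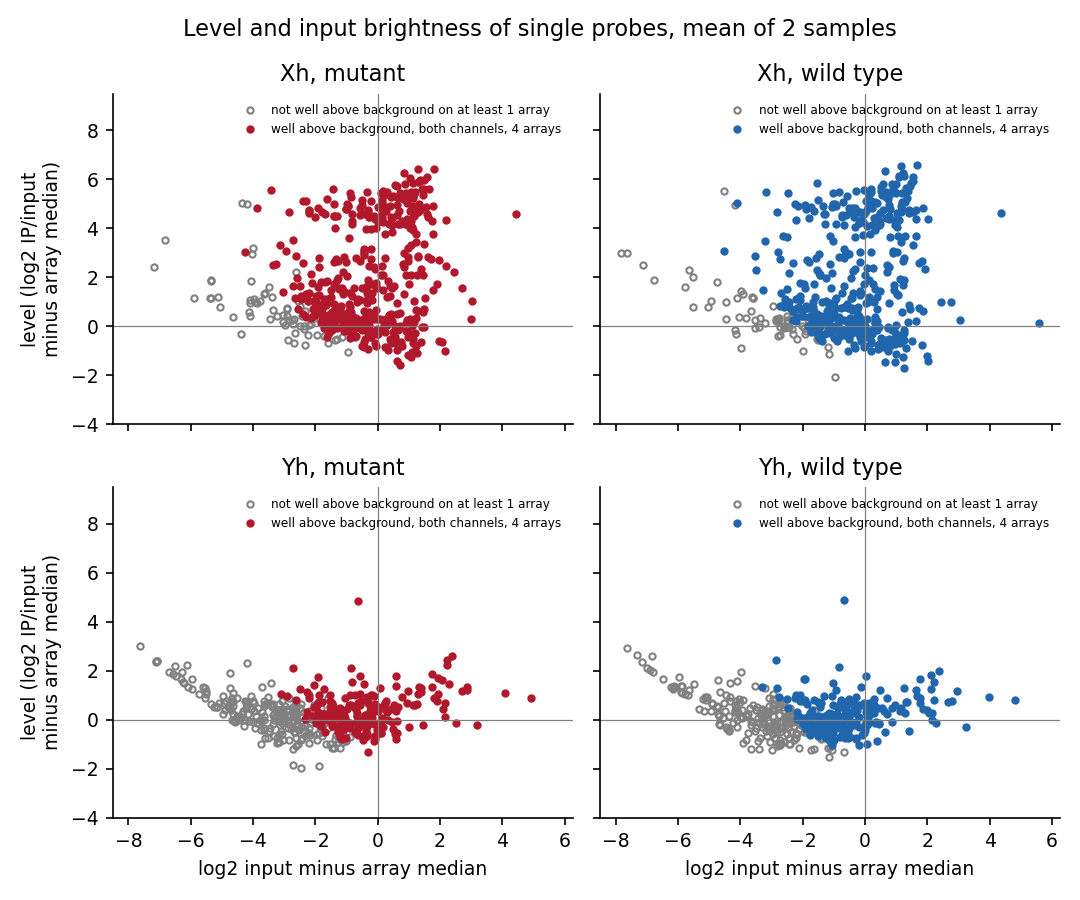
Level of single probes (log2 IP/input minus the array median) against their log2 input intensity minus the array median, each the mean of the 2 samples of a genotype, for Xh (top) and Yh (bottom), mutant left and wild type right. Filled points are the 427 Xh and 211 Yh probes well above background in both channels on all 4 arrays. Xh holds a group of bright probes with levels above 4, and the dimmest Yh probes lie above 0.

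Probe profiles repeated well on Xh and less well on Yh. Across the probes of Xh the replicates of the mutant were correlated with Pearson's r of 0.97, and those of wild type with 0.96 (494 probes). On Yh the values were 0.55 in the mutant and 0.50 in wild type (432 probes). Neighboring probes at most 500 bp apart had a correlation of 0.96 in the mutant and 0.96 in wild type on Xh (473 pairs), and of 0.29 and 0.24 on Yh (361 pairs). Probes of one array are not independent replicates and share its DNA and its normalization, so these values are descriptions. On Xh 32 neighboring pairs overlapped in position, and on Yh none did.

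The mean level of both scaffolds differed little between genotypes. Mutant minus wild type was 0.10 in replicate 1 and 0.14 in replicate 2 for Xh, and 0.08 and 0.11 for Yh. The mean change was 0.12 for Xh and 0.09 for Yh (exact permutation test over samples, two-sided, p = 0.667 for both, where 0.333 is the smallest possible, and p = 0.5 within replicates, the smallest possible there). Both changes were positive in 2 of 2 replicates and smaller than the distance between replicates. For Xh replicate 2 exceeded replicate 1 by 0.36 in the mutant and by 0.32 in wild type, and for Yh by 0.25 and 0.22. On the X arm the change was 0.02 and 0.01. Relative to it the change was 0.10 for Xh (exact permutation test, p = 0.667) and 0.08 for Yh (p = 0.333, no overlap of the genotypes). Without mutant replicate 2 the changes were -0.060 for Xh and -0.030 for Yh, and without wild type replicate 1 they were -0.039 and -0.017. With normexp background correction the signs turned too, with values of -0.12 for Xh, -0.19 for Yh, -0.023 for Xh relative to the X arm and -0.091 for Yh relative to the X arm.

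The change of both scaffolds was smaller than that of arm U and 4h. Arm U was higher in the mutant by 0.29 and 0.34 in the 2 replicates and 4h by 0.41 and 0.35, without overlap between genotypes (exact permutation test, p = 0.333). In each sample the distance of Xh from arm U was 0.65 and 0.71 in the mutant and 0.84 and 0.91 in wild type, which did not overlap (exact permutation test, p = 0.333). The same held for Yh, which was below arm U by differences of -0.89 and -0.95 in the mutant and -0.68 and -0.71 in wild type (exact permutation test, p = 0.333). In mutant minus wild type the mean input level was 0.02 for Xh and -0.01 for Yh, and 0.03 for arm U and 0.11 for 4h. The part of the input in the changes of arm U and 4h was not tested.

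Within Xh the change was uneven. In the 32 kb stretch mutant minus wild type was -0.06 in replicate 1 and 0.03 in replicate 2. In the rest of Xh it was 0.22 and 0.23, and both mutant samples were above both wild type samples (exact permutation test, p = 0.333, the smallest possible). Relative to the mean of the X arm the mean of the rest of Xh lay at -0.35 and -0.35 in the mutant and at -0.55 and -0.57 in wild type. With medians over probes the rest of Xh lay above the X arm in every sample. The split this rests on was chosen after the levels had been seen. Of the 16 windows in the stretch, 3 were higher in the mutant in both replicates and 6 were lower, with a median change of -0.06. Of the 24 windows after it, 16 were higher in both replicates and 2 were lower, with a median change of 0.20, and in 10 the mutant samples lay above the wild type samples without overlap.

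Over all windows 19 of 40 on Xh (47.5%) and 27 of 61 on Yh (44.3%) were higher in the mutant in both replicates, against 33.3% of all 57266 windows tested in the genome. Lower in both replicates were 8 Xh windows (20.0%) and 8 Yh windows (13.1%), against 27.7% in the genome. The samples did not overlap, with the mutant above, in 10 Xh windows (25.0%) and 13 Yh windows (21.3%), against 15.9% of all windows. With the mutant below they did not overlap in 1 Xh window and 3 Yh windows, against 11.7% of all windows. The median change was 0.09 on Xh and 0.06 on Yh, against 0.02 over all windows. In this processing the window counts of both scaffolds leaned slightly more toward the mutant than those of the genome, and the difference was not tested. With normexp the mean change was -0.12 for Xh and -0.19 for Yh, and also below 0 relative to the X arm. The direction thus depended on the processing.

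Single probes gave a like picture. The mutant samples lay above wild type without overlap at 87 Xh probes (17.6%) and 91 Yh probes (21.1%), against 14.4% of the probes of this array design, and below at 18 Xh probes (3.64%) and 47 Yh probes (10.9%), against 12.2%. Higher in both replicates by more than 1 were 2 Xh and 5 Yh probes, against 0.523% of all probes, and lower by more than 1 were 1 Xh and 3 Yh probes, against 0.346%. Across probes the change in replicate 1 and that in replicate 2 were correlated with r of 0.18 on Xh and -0.003 on Yh. Across windows r was 0.55 on Xh (40 windows) and 0.04 on Yh (61 windows), against 0.47 over all windows of the genome. The changes of single windows were thus repeatable on Xh to about the degree seen over the genome, and hardly at all on Yh.

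Of the 101 windows of both scaffolds, 1 was higher in the mutant after adjustment over the genome and 0 were lower (limma with Benjamini-Hochberg adjustment over 57266 windows at 0.05), against 0.353% of all windows higher and 0.173% lower. At an unadjusted p under 0.05, 4 Xh and 8 Yh windows were higher, against 3.74% of all windows, and 0 were lower, against 2.07%. The window that passed lies on Yh from 286001 to 288000 and holds 4 probes. Its level was 0.28 and 0.76 in the mutant and -0.63 and 0.14 in wild type, and the samples did not overlap. The change was 0.77 with a standard error of 0.20 (limma, adjusted p = 0.0269), 0.91 in replicate 1 and 0.62 in replicate 2. This standard error came mostly from the trend over windows of like level. The window's own samples had an SD of 0.34 in the mutant and 0.54 in wild type, so the p-value does not measure their spread. The input of this window was very dim, at -3.56 in the mutant and -3.50 in wild type. Only 1 of its 4 probes was well above background in both channels on all arrays. With normexp its change was -0.37, and without the trend of limma its adjusted p was 1, so this call depended on the processing. It was also lost without mutant replicate 2 (change 0.53, limma, adjusted p = 0.999) or without wild type replicate 1 (change 0.38, adjusted p = 1), and the change was 1.15 without wild type replicate 2.

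The pair of windows next in size lay on Xh. The window from 174001 to 176000, with 13 of its 14 probes well above background, had levels of 1.02 and 1.13 in the mutant and 0.13 and 0.53 in wild type. Its change was 0.74 with a standard error of 0.23 (limma, adjusted p = 0.141). The window from 154001 to 156000, with all 5 probes well above background, had 1.23 and 1.40 in the mutant and 0.51 and 0.69 in wild type, a change of 0.71 with a standard error of 0.25 (limma, adjusted p = 0.271). The change of this window was 0.71 in both replicates. The window from 172001, next to the first, had 1.49 and 1.83 in the mutant and 0.77 and 1.45 in wild type, a change of 0.55 (adjusted p = 0.823) that ran between 0.21 without wild type replicate 1 and 0.89 without wild type replicate 2. Without centring, or with scaling by the median absolute deviation, the windows from 174001 and 154001 passed the adjusted threshold. With normexp the changes from 174001, 154001 and 172001 were only 0.13, 0.41 and 0.082, and none passed. In the main processing the genotypes did not overlap in any of these 3 windows, against 15.9% of all windows with the mutant above. The windows were picked by their change in both replicates, so this lack of overlap largely follows from the choice. On Yh the windows from 302001 and 318001 followed the called one. The first changed by 0.60 (limma, adjusted p = 0.286), but by 0.10 in replicate 1 and 1.09 in replicate 2, and 0 of its 5 probes were well above background. Its change ran between 0.21 without mutant replicate 2 and 0.99 without mutant replicate 1. The window from 318001 changed by 0.59 (limma, adjusted p = 0.463), and by 0.33 without wild type replicate 1.

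Decreases were smaller. The Xh windows with the largest decrease in both replicates began at 108001, 96001 and 134001, with changes of -0.23, -0.16 and -0.11. On Yh the windows from 168001, 150001 and 182001 had changes of -0.37, -0.35 and -0.27. None of these 6 passed the test (limma, smallest adjusted p 0.866).

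Replicate 1 of both genotypes was scanned on one day and replicate 2 on another, so the replicate numbers pair the samples. With the replicate as a block, 15 of the 101 windows were higher in the mutant and 0 were lower (limma, adjusted over all windows), against 5.4% of all windows higher and 3.73% lower. Of these 15, 5 were on Xh and 10 on Yh. The Xh windows began at 142001, 154001, 160001, 172001 and 174001, and none lay in the 32 kb stretch. The windows from 174001 and 154001 had adjusted p-values of 1.65e-05 and 3.59e-05 in this fit (limma). Their standard errors were 0.145 and 0.144 and again came mostly from the trend. The Yh window from 302001, with changes of 0.10 and 1.09, had 0.145 too and passed (limma, adjusted p = 0.00105). The p-values of this fit and its 15 calls therefore do not measure how well a window's replicates agreed. On Yh 6 of the 10 were between 282001 and 320000 in their position, and whether calls were more frequent there was not tested. Among them, the windows from 286001, 302001 and 318001 had 1 of 4, 0 of 5 and 2 of 4 probes well above background. With normexp their changes were -0.37, -0.44 and -0.054.

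**Figure D5:**
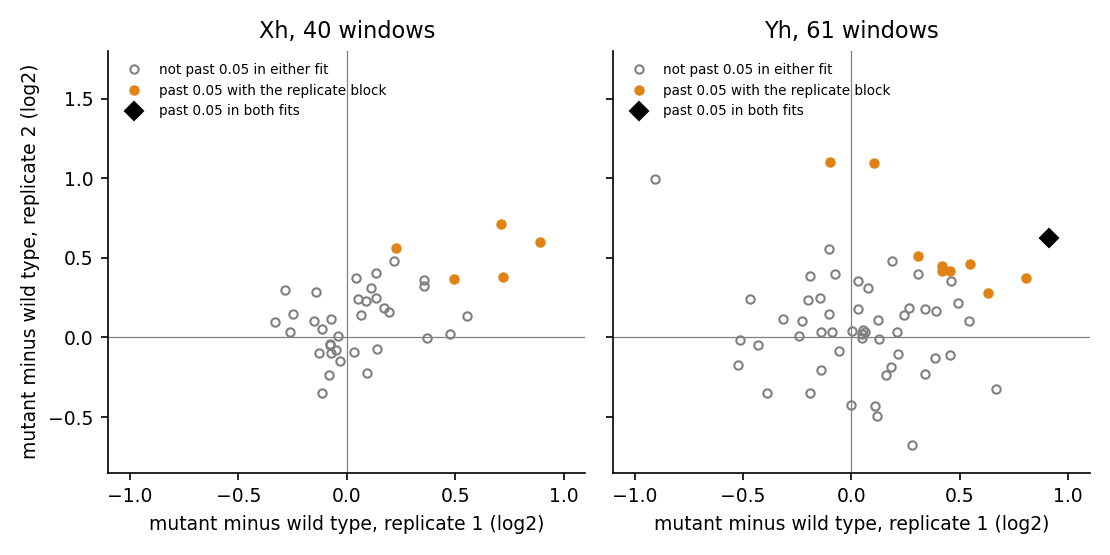
Mutant minus wild type (log2) of each 2 kb window in replicate 1 (horizontal axis) and replicate 2 (vertical axis) for the 40 windows of Xh and the 61 of Yh. Filled circles passed an adjusted p of 0.05 only with the replicate as a block, and the diamond is the Yh window from 286001, which passed in both fits; the 5 filled Xh windows lie above 0 in both replicates.

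Peaks on the mt/WT track were called with the double threshold of the study, with at least 3 probes per peak and overlap between both replicates. They gave 1 increased peak on Xh, 0 on Yh, and 0 decreased peaks on either scaffold. The peak covered Xh from 172954 to 176110 in replicate 1, with 23 probes. In replicate 2 it was called as a pair of peaks, from 172623 to 173223 and from 174172 to 175517. Over the 23 probes the level was 1.12 and 1.22 in the mutant and 0.24 and 0.74 in wild type. Of them 20 were higher in the mutant in both replicates, against 28.7% of the probes of this array design. The peak was called on these same values, so they describe it and are no separate support. The change was 0.87 in replicate 1 and 0.48 in replicate 2. In the IP channel alone it was 0.88 and 0.44, whereas in the input it was 0.04 and -0.02. Most of the change of these called probes was thus in the IP channel, and its cause was not tested. The peak touched 3 of the 101 windows, against 2.41% of all windows with part of an increased peak and 2.37% with part of a decreased one. In single replicates, before overlap was required, 7 increased peaks were found on Xh in each replicate, and 6 and 9 on Yh, of 3096 and 2433 in the genome. Decreased peaks in single replicates numbered 4 and 0 on Xh and 2 and 7 on Yh, of 3228 and 2412 in the genome. With the deposited log2 ratios or normexp the Xh peak was not called.

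A pair of overlapping Xh probes, at 142958 to 143017 and 142966 to 143025, differed between the lines in both channels. These were the only 2 of the 926 probes whose input differed by more than 1 between genotypes in both replicates, and they were singled out after their values had been seen. The first had a processed input intensity of 184 and 93.3 units in the mutant and 9.89 and 11.6 in wild type. Its IP intensity was 688 and 684 in the mutant and 48.1 and 70.7 in wild type. Both channels were well above background in both mutant samples, while in both wild type samples neither channel was well above background and the software had replaced a reading. Both channels differed in the same direction, and the levels of this probe were 2.42 and 3.50 in the mutant and 2.76 and 3.19 in wild type. The wild type values here are ratios of replaced intensities and set no level. The window from 142001, which passed the test with the replicate block, contains both probes.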

How the data were processed

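The members and every list used here were chosen with earlier results of these data known. Scanner files that the authors deposited come from Feature Extraction 10.5.1.1 and hold an intensity per spot and channel, already subtracted for background, detrended and scaled between dyes. They also deposited log2 ratios, which matched the background-subtracted IP/input ratio plus a constant per array and were used as an alternative. The submitters' processing notes name limma. Scaffold levels came from the 4 arrays of the second design, and the fit over all windows used all 8 arrays. On the second design the median brightness after background subtraction was 609 to 868 units for input and 83.4 to 112 for IP. The number of arrays limits the precision. Outlier spots were left out, which removed no Xh or Yh probe.

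Log2 ratios of processed intensities were centred on each array's median. Windows of 2 kb with at least 3 probes were fitted with limma 3.58.1 (lmFit, eBayes with trend, R 4.3.3), mutant against wild type, and adjusted over 57266 windows by Benjamini-Hochberg at 0.05. With the trend, standard errors were set mostly by windows of like level. The Xh windows from 134001 and 140001 both had 0.18. Their SDs were 0.08 and 0.48 in the mutant and 0.06 and 0.46 in wild type. Scaffold means were compared by exact permutation or sign-flip tests over samples, two-sided. Peaks used a 5-probe moving average, thresholds of 1 and 2 SD beyond the mean of the positive smoothed probes, gaps of at most 1000 bp within a run, runs of at least 3 probes, overlap between replicates and, for increased peaks, more positive than negative mutant probes. The mt/WT track is mutant minus wild type of the same replicate number. The numbers pair the samples, since scanner headers show 1 scan day per replicate, and the difference between replicates correlated between genotypes with r of 0.653 over all windows. The replicates are biological per the labels, with 2 for each genotype.

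Windows named are the 3 highest and 3 lowest by mean level and the 3 with the largest increase and decrease in both replicates on each scaffold, plus called windows and peaks. Single probes named are the highest and lowest on each scaffold. Others were named after their values had been seen. Alternatives were normexp with an offset of 50, no centring, scaling by the median absolute deviation, deposited ratios, only probes well above background, outliers kept, medians, other window sizes, the replicate block and leaving out each sample. Alternatives without replaced intensities and without the high stretch of Xh were added after seeing the data. The scripts were tested on simulated data. Python 3.11.15, pandas 2.3.3, scipy 1.17.1 and matplotlib 3.10.9 were used.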

Additional observations from a re-analysis of the deposited data

How the results depend on the processing

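Xh was above Yh under each alternative run for that gap, which was 0.75 with normexp, 0.91 with medians, 0.15 without the high stretch of Xh, a split chosen after seeing the data, and 1.57 to 1.61 without single samples. Xh minus the X arm was 0.60 with normexp, but without the high stretch the mean of Xh lay below that of the X arm, by -0.45. That direction turned with medians over probes. They were 0.35 and 0.41 in the mutant and 0.13 and 0.18 in wild type for Xh without the stretch. For the X arm they were 0.022 and 0.026 in the mutant and 0.015 and 0.019 in wild type. Yh minus the X arm was -0.15 with normexp. Normexp moved the mean level of Xh to 0.93 in the mutant and 1.05 in wild type, no centring to 1.31 and 1.23, and the median over probes to 1.21 and 0.97. No centring turned the mean level of Yh to -0.30 in the mutant and -0.35 in wild type. With medians Yh minus the X arm was 0.15. Normexp turned the change of Xh to -0.12 and of Yh to -0.19, and relative to the X arm to -0.023 and -0.091. Without single samples the change of Xh ranged between -0.060 and 0.30, that of Yh between -0.030 and 0.22, the input difference of Xh between -0.21 and 0.25 and that of Yh between -0.23 and 0.21, where leaving out 1 sample of a pair brings in the difference between replicates. Within pairs the change of Xh, the change of Yh and the input difference of Xh kept their sign, and the input difference of Yh was -0.025 and 0.0037. With only probes well above background the input difference of Yh was 0.045.

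Windows higher in the mutant numbered 15 with the replicate block, 3 without centring, 2 with scaling by the median absolute deviation or no minimum of probes, and 0 without the trend, with 1 kb windows, single probes, normexp, deposited ratios or only probes well above background, where the called Yh window had too few probes to be tested. Without single samples the count was 0 to 2: 0 without mutant replicate 2 or wild type replicate 1, and 2 without wild type replicate 2. Windows lower in the mutant numbered 2 with no minimum of probes and 0 without any single sample. Increased peaks numbered 0 with the SD taken before smoothing, with normexp or with deposited ratios, and 3 with only probes well above background. Decreased peaks numbered 2 with normexp. With 1 replicate left, and so no overlap required, increased peaks numbered 10 to 15 and decreased peaks 6 to 7.

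Of named windows, the Yh change from 286001 was -0.37, from 302001 -0.44 and from 318001 -0.054 with normexp, and from 150001 0.25 with deposited ratios. Scaling by the median absolute deviation gave the Xh windows from 120001, 104001 and 96001 changes of 0.084, 0.083 and 0.0047. Without single samples the change from 108001 ranged between -0.53 and 0.065, that from 96001 between -0.49 and 0.17 and that from 150001 between -0.78 and 0.080. Normexp gave Yh levels of -0.11 from 238001, 0.27 from 320001, 0.39 from 384001 and 0.36 from 304001. The cause was not tested for any of these. Fewer Yh than Xh probes were well above background, and 2 samples per genotype limit every test. With the replicate block the Xh windows from 174001, 154001 and 172001 and the Yh windows from 302001 and 318001 passed as well. The Yh window from 286001 stayed called in that fit.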
